A study of Mus musculus with 15 samples.

Results

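A set of 30 genes of cholesterol synthesis, cholesterol transport and sterol control was followed in mouse bone marrow hematopoietic stem cells (HSCs) sorted into bins by retention of a fluorescent histone. The 30 genes were chosen by symbol from the 31298 symbols of the expression table. All 30 were in the table, and all 30 passed the filter on low values. They fall into 5 roles. The mevalonate arm has 8 genes (Acat1, Acat2, Hmgcs1, Mvk, Pmvk, Mvd, Idi1 and Fdps). The step through squalene to lanosterol has 3 (Fdft1, Sqle and Lss), and the step from lanosterol to cholesterol has 8 (Cyp51, Tm7sf2, Msmo1, Nsdhl, Hsd17b7, Ebp, Sc5d and Dhcr7). Sterol control has 7 (Srebf1, Srebf2, Scap, Insig1, Insig2, Nr1h2 and Nr1h3), and sterol transport and storage has 4 (Stard4, Npc1, Npc2 and Soat1).

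Cells build cholesterol from acetyl-CoA by way of mevalonate, farnesyl diphosphate, squalene and lanosterol. Farnesyl diphosphate is a branch point, since it also feeds ubiquinone, dolichol and the lipid tails of prenylated proteins. The SREBP transcription factors raise many of these genes when sterols are scarce: Scap carries the SREBP precursor from the endoplasmic reticulum to the Golgi, where it is cleaved, and the Insig proteins hold Scap back when sterols are plentiful. The liver X receptors (Nr1h2 and Nr1h3) respond to oxysterols and drive sterol efflux. Dividing cells need cholesterol for new membrane.

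All mice carried the transgenes hCD34-tTA and TetO-H2BGFP. A tetracycline transactivator, under human CD34 regulatory sequence, drove a histone H2B fused to green fluorescent protein, so only cells in which that sequence was active took up label. Doxycycline in the drinking water switched the label off, after which each division dilutes it. HSCs were sorted as LSK cells (lineage-negative, Sca1-positive, c-Kit-positive) that were CD48-, Flk2- and CD150+, and were then sorted by fluorescence into bins named GFP4, GFP3, GFP2 and GFP1. Total names the whole sort before this division, which holds cells of all bins. Since the sources used here give no direction for the bin numbers, GFP4 is taken as the bin with the most label. Each of the 5 groups had 3 libraries. Library I came from age 5 months and 12 weeks on doxycycline, library II from 5.5 months and 14 weeks, and library III from 6.5 months and 16 weeks. The labels do not say whether libraries came from separate mice or pools, so p-values measure only the spread between these libraries. Values are quantile-normalized log2 expression values whose read depth is unknown. The length scaling behind them is not given in the sources used here, so levels are compared between groups and not between genes.

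All 12 HSC markers were above the lowest value in every group. Their summed level was 3162 to 3284 ppm of the summed linear values in GFP1 and 5377 to 6315 ppm in GFP4. GFP1 and Total also held transcripts of antibody-producing cells. Immunoglobulin genes took 4.92% to 5.28% of the summed values in GFP1 libraries and 4.34% to 5.49% in Total libraries, against 0.00734% to 0.0741% in libraries from the other 3 bins. Of 12 plasma cell markers, 11 were higher in GFP1 than in GFP4, with sums of 4088 to 5108 ppm in GFP1, 318 to 346 ppm in GFP2, 362 to 476 ppm in GFP4 and 2450 to 5904 ppm in Total. Of 18 proliferation genes, 18 were higher in GFP1 than in GFP4 and 17 were higher in GFP2 than in GFP4, with sums of 4464 to 5246 ppm in GFP1, 2653 to 3624 ppm in GFP2 and 1362 to 1691 ppm in GFP4. Of 12 markers each, the number higher in GFP1 than in GFP4 was 7 for B cells, 6 for erythroid cells, 7 for megakaryocytes (with 1 lower) and 3 for T and NK cells (with 1 lower), while 2 endothelial and stromal markers and 8 HSC markers were lower and 1 HSC marker was higher. In the macrophage and neutrophil lists limma called 0 of 12 each, and 0 of each had an unadjusted p under 0.05. The part of these lists in the results on cholesterol genes was not tested, and in bulk samples fewer cells of a type and less RNA per cell cannot be told apart.

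GFP1 against GFP4 compares the ends of the label range. In GFP1, Fdps and Ebp were higher, and Fdft1, Msmo1, Sc5d, Srebf2, Insig1 and Npc2 were lower. The other 22 genes did not pass the test, which was limma with Benjamini-Hochberg adjustment over 27994 genes at 0.05. The 2 higher genes are 6.67% of the 30, beside 9.27% of all genes tested. The 6 lower genes are 20% of the 30, beside 10.3% of all genes tested. Among the 11058 tested genes whose mean was at least that of the lowest of the 30 genes, 18.7% were higher and 22% were lower. They are called genes of like level from here on, though only this lower bound was set. Neither share of the 30 exceeds theirs. The median difference of the 30 genes was -0.04, beside -0.07 over all genes, and their median absolute difference was 0.22, beside 0.33 among those 11058 genes. Of the 19 enzymes of the synthesis chain, 10 had positive and 9 had negative differences.

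**Figure D1:**
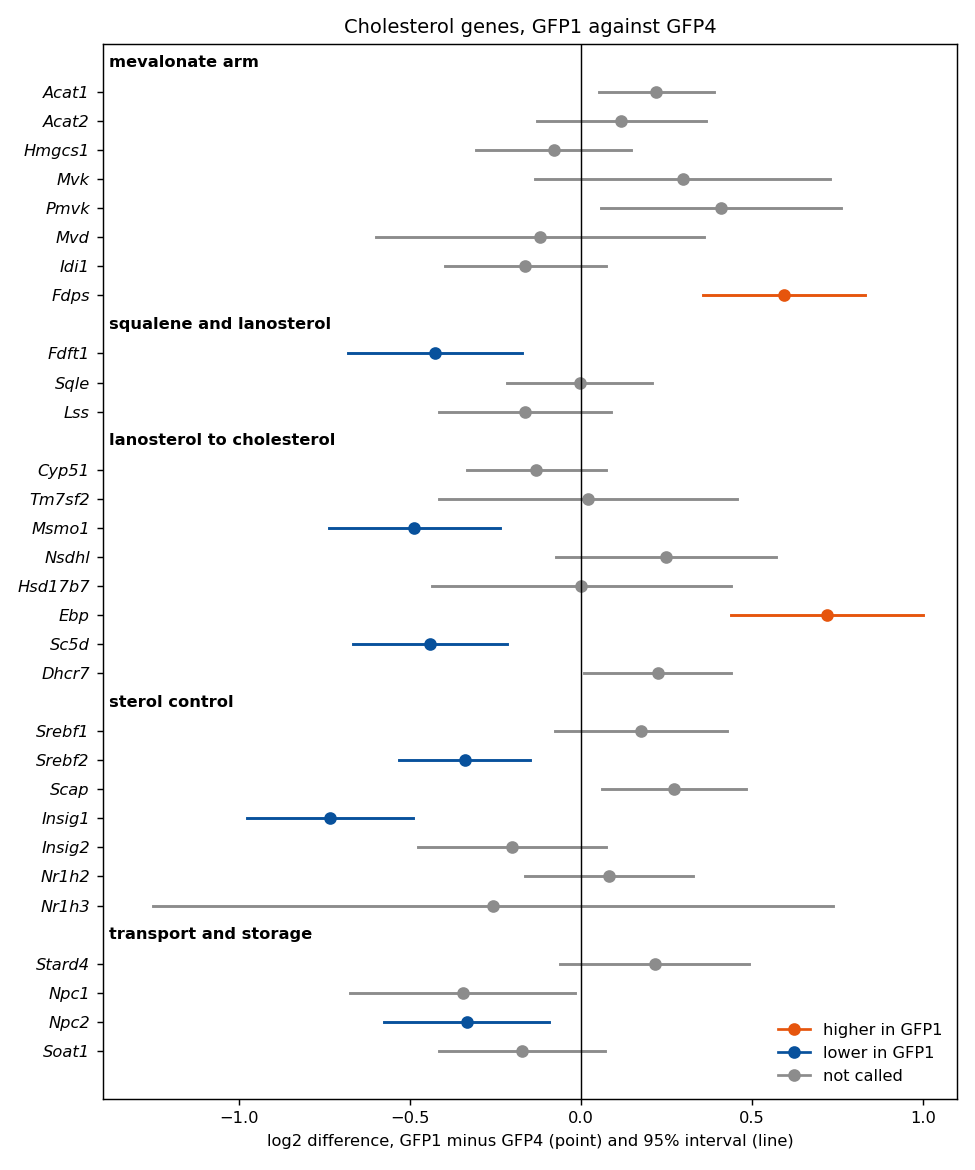
Difference in log2 value, GFP1 minus GFP4, for each of the 30 genes in order of role (points, with 95% confidence intervals from limma; 3 libraries per group). Ebp at 0.72 and Insig1 at -0.73 lie at the ends, and 22 of the 30 genes did not pass the adjusted threshold of 0.05.

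Promoter windows are shown for 5 of the 8 genes that passed: the 4 whose window holds the sterol regulatory element core or the E-box, motifs known from sterol control, and Ebp, the gene with the largest rise. Of the other 3, Npc2 holds a pair of CCAAT boxes and neither of those motifs, and Fdps and Fdft1 are not shown. RefSeq start sites (GRCm38.p6) gave 33 windows for 24 of the 30 genes, and each was searched over the 250 bases before the start. The capitals below mark matches to the core of the sterol regulatory element (TCACNCCA, bound by SREBPs), the E-box CACGTG, which is its own reverse complement, and the CCAAT box (ATTGG on the other strand). Each motif was sought on both strands, and no matches overlap in the sequences printed, which are stretches of the windows read 5′ to 3′ on the strand of the gene. They are Insig1 at chr5:28071192-28071362 (plus strand), Srebf2 at chr15:82147049-82147180 (plus), Msmo1 at chr8:64733734-64733763 (minus), Sc5d at chr9:42264301-42264520 (minus) and Ebp at chrX:8193513-8193732 (minus).
Insig1: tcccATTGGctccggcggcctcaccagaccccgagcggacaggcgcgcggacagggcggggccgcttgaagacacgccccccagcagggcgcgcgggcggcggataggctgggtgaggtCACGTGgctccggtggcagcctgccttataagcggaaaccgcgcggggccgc
Srebf2: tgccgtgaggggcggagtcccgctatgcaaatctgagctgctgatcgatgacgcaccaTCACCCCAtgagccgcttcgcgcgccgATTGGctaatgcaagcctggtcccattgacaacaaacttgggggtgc
Msmo1: cactattcTCACTCCAtccgcgcagCCAAT
Sc5d: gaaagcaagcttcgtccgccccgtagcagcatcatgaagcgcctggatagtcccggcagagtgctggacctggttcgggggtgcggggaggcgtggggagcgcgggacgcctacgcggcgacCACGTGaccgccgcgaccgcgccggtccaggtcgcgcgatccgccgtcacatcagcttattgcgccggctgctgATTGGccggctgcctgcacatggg
Ebp: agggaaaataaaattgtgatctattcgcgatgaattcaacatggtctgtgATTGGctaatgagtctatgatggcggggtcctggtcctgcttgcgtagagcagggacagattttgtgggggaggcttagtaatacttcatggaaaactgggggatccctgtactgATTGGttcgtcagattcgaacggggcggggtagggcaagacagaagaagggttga

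Of the 5 genes shown, Srebf2 and Msmo1 hold the sterol regulatory element core, Insig1 and Sc5d hold the E-box, and all 5 hold a CCAAT box. The Srebf2 element lies 162 to 155 bases before the RefSeq start, with an inverted CCAAT box 135 to 131 bases before it. In Insig1 the E-box lies 101 to 96 bases before the start. The Msmo1 stretch lies before the RefSeq start but inside the gene as GENCODE bounds it (chr8:64718139-64733792). The other printed stretches lie before the GENCODE start of their gene. Ebp, which was higher in GFP1, holds a pair of inverted CCAAT boxes and no match to the other motifs in this window. Among the 24 genes with a window, 3 held the sterol element core (Hmgcs1, Msmo1 and Srebf2), in 9.09% of their windows, beside 3.67% of all 32851 windows. The E-box was in 5 of the 24 (Dhcr7, Hsd17b7, Insig1, Sc5d and Scap), in 15.2% of their windows, beside 6.02% of all windows. A CCAAT box was in 20 of the 24, in 63.6% of their windows, beside 33.8% of all windows. In GFP1 against GFP4, of the 3 genes with the core 2 were lower and 1 did not pass. Of the 5 with the E-box, 2 were lower and 3 did not pass. Of the 20 with a CCAAT box, 1 was higher, 5 were lower and 14 did not pass. The genes shown were picked among those that passed, so they do not represent all genes with a motif. These matches describe letters only, and their part in the results was not tested.

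Fdps, which makes farnesyl diphosphate, was higher in GFP1. It lies at chr3:89093588-89101959 (GRCm38, GENCODE). Its log2 values were 11.25, 11.31 and 11.21 in GFP1 libraries I, II and III, against 10.72, 10.60 and 10.68 in GFP4. Every GFP1 library was above every GFP4 library. The difference was 0.59 (SE 0.11, limma adjusted p = 0.000625), a fold of 1.51. Along the bins its mean was 10.67 (GFP4), 10.86 (GFP3), 11.07 (GFP2) and 11.26 (GFP1), and Total had 11.22. Gm43738, a gene on the same strand that overlaps Fdps, averaged 1.39 in GFP1 and 1.05 in GFP4 and so was near the lowest value of the table, and the highest value of 4 Fdps pseudogenes in any library was 4.36.

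The other 7 genes of the mevalonate arm did not pass in GFP1 against GFP4. Acat1, the mitochondrial thiolase, came nearest: it had 12.68, 12.64 and 12.68 in GFP1, against 12.45, 12.48 and 12.43 in GFP4. Its GFP1 libraries all lay above its GFP4 libraries, with a small difference of 0.22 (SE 0.08, limma adjusted p = 0.0645). It passed with the replicate block (limma adjusted p = 0.0474), the filter at 1 ppm (0.0256), array weights (0.0339) and the compared groups alone (0.0427). It also passed with quantile normalization repeated without the immunoglobulin genes (0.0396) and rescaling by the median of ratios (0.0171). In the other alternatives for GFP1 against GFP4 it did not pass. Acat1 did pass the test for a linear trend over the 4 bins, with a slope of 0.08 per step towards GFP1 (SE 0.03, limma adjusted p = 0.0278). Leaving out any 1 of the 6 libraries of GFP4 and GFP1 ended that call, with adjusted p up to 0.0823. Pmvk, which phosphorylates phosphomevalonate, had 9.64, 9.34 and 9.59 in GFP1, against 8.94, 9.23 and 9.17 in GFP4. Its groups did not overlap, and its difference of 0.41 was larger than that of Acat1 but less precise (SE 0.17, limma adjusted p = 0.106). The other genes gave differences of 0.12 for Acat2 (the cytosolic thiolase), -0.08 for Hmgcs1 (HMG-CoA synthase), 0.30 for Mvk (mevalonate kinase), -0.12 for Mvd (which decarboxylates mevalonate diphosphate) and -0.16 for Idi1 (isopentenyl diphosphate isomerase). In all 5 the GFP1 and GFP4 libraries overlapped.

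Fdft1, squalene synthase, uses the product of Fdps and commits it to sterols; it was lower in GFP1. It lies at chr14:63145150-63179578. Its log2 values were 10.27, 10.25 and 10.16 in GFP1 libraries, against 10.57, 10.62 and 10.78 in GFP4 libraries. All GFP1 libraries were below all GFP4 libraries. The difference was -0.43 (SE 0.12, limma adjusted p = 0.0151), a fold of 0.743. The call was lost without GFP1 library III or without GFP4 library III, with adjusted p up to 0.0797. Fdft1 overlaps Ctsb, a cathepsin gene on the opposite strand that averaged 13.86 in GFP1 and 14.09 in GFP4, and use of strand in the counting is not given in the sources used here, so reads of the overlap cannot be told apart. Of the next enzymes, Sqle (squalene epoxidase) differed by -0.0047 with a 95% interval of -0.22 to 0.21, and Lss (lanosterol synthase) differed by -0.17 with an interval of -0.42 to 0.09. The libraries of both genes overlapped between the groups.

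Ebp had the largest rise of the 30 genes in GFP1. It encodes the sterol isomerase that moves a double bond in the sterol ring, and lies at chrX:8185329-8193512. The libraries of GFP1 had log2 values of 10.75, 10.74 and 10.79, against 10.04, 9.88 and 10.21 in GFP4 libraries. No library of one bin reached the other. The difference was 0.72 (SE 0.13, limma adjusted p = 0.000511), a fold of 1.65. The bin means were 10.04 (GFP4), 10.25 (GFP3), 10.54 (GFP2) and 10.76 (GFP1), and Total had 10.58.

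Sc5d encodes the desaturase that acts on the product of Ebp, and it was lower in GFP1. It lies at chr9:42251595-42264256. Sc5d had log2 values of 10.13, 10.43 and 10.27 in GFP1 libraries, against 10.78, 10.66 and 10.71 in GFP4 libraries. The GFP1 libraries were all below the GFP4 libraries, and among GFP3 and GFP2 the replicate SD was only 0.02. The difference was -0.44 (SE 0.11, limma adjusted p = 0.00499), a fold of 0.736. Its means stayed near each other in GFP4 (10.72) and GFP3 (10.69), were 10.56 in GFP2 and 10.28 in GFP1, and were 10.53 in Total.

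Msmo1, an oxidase that acts on methyl groups of the sterol ring, was also lower in GFP1. It lies at chr8:64718139-64733792. Msmo1 had log2 values of 10.96, 11.22 and 11.18 in GFP1 libraries, against 11.75, 11.31 and 11.76 in GFP4 libraries. GFP4 library II, at 11.31, was closest to the GFP1 libraries, but the groups did not overlap. The difference was -0.49 (SE 0.12, limma adjusted p = 0.00529), a fold of 0.713. The 5 other genes between lanosterol and cholesterol did not pass. Dhcr7, the last reductase of one branch, differed by 0.22 (limma adjusted p = 0.157) with all GFP1 libraries above all GFP4 libraries. Differences were -0.13 for Cyp51 (lanosterol demethylase), 0.02 for Tm7sf2 (a sterol reductase), 0.25 for Nsdhl (a sterol dehydrogenase) and 0.0004 for Hsd17b7 (a sterol ketoreductase), and the libraries of these 4 genes overlapped.

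**Figure D2:**
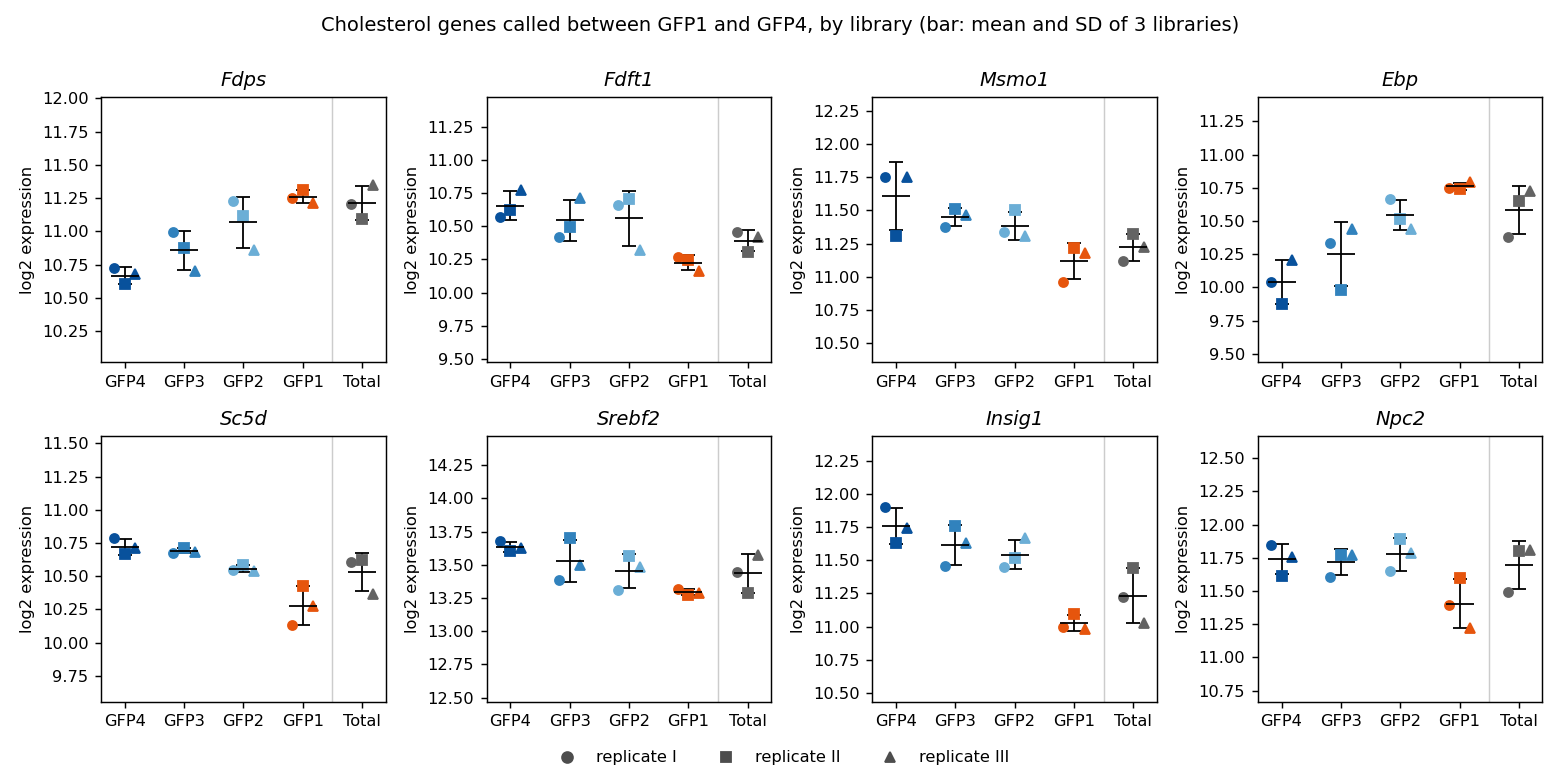
Log2 value of each library (points, 3 per group) in GFP4, GFP3, GFP2, GFP1 and Total for the genes that passed in GFP1 against GFP4. Bars show the group means and their SDs. Fdps and Ebp lie higher in GFP1 than in GFP4, and Insig1 stands at 10.98 to 11.09 in GFP1, against 11.63 to 11.90 in GFP4.

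Among the genes of sterol control, Insig1 showed the largest fall of the 30 genes. Insig1 retains Scap in the endoplasmic reticulum and is itself a well known SREBP target. It lies at chr5:28071363-28078662. Its log2 values were 11.00, 11.09 and 10.98 in GFP1 libraries, against 11.90, 11.63 and 11.74 in GFP4 libraries. The gap between the highest GFP1 library and the lowest GFP4 library was wider than the range within either group. The difference was -0.73 (SE 0.11, limma adjusted p = 8.81e-05), a fold of 0.601. Insig1 was also lower in GFP1 than in GFP2, by -0.52 (SE 0.11, limma adjusted p = 0.00814), with 11.45, 11.52 and 11.66 in the GFP2 libraries. Its GFP1 libraries overlapped those of Total, where it had 11.22, 11.44 and 11.03, and the difference between GFP1 and Total was -0.21 (limma adjusted p = 0.522). Immunoglobulin transcripts were high in the same groups, GFP1 and Total; their part in the Insig1 result was not tested.

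Srebf2, which encodes the SREBP most tied to cholesterol genes, was lower in GFP1. It lies at chr15:82147181-82205379. Srebf2 had log2 values of 13.32, 13.28 and 13.29 in GFP1 libraries, against 13.68, 13.60 and 13.62 in GFP4 libraries. Both groups were tight and did not overlap. The difference was -0.34 (SE 0.09, limma adjusted p = 0.0109), a fold of 0.789. The microRNA gene Mir33 lies inside Srebf2.

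The other control genes did not pass. Srebf1, whose SREBP is best known for fatty acid genes, had 12.14, 11.96 and 12.02 in GFP1 and 11.96, 11.93 and 11.71 in GFP4, with a difference of 0.17 (limma adjusted p = 0.407). Scap had 12.32, 12.07 and 12.15 in GFP1 and 11.91, 11.99 and 11.82 in GFP4, with a difference of 0.27 (limma adjusted p = 0.0664). For both genes all GFP1 libraries were above all GFP4 libraries. Scap passed with the filter at 1 ppm (limma adjusted p = 0.0338), the compared groups alone (0.0454) and rescaling by the median of ratios (0.02). It also passed with quantile normalization repeated without the immunoglobulin genes (0.0491), and in no other alternative for GFP1 against GFP4. Insig2, a paralogue of Insig1 that also retains Scap, differed by -0.20 (limma adjusted p = 0.37), with no overlap between the groups. Nr1h2, the widely expressed liver X receptor, differed by 0.08 with overlap.

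Nr1h3, the liver X receptor of macrophages and liver, had the widest spread of the 30 genes. Its values were 8.05, 7.36 and 7.80 in GFP4, 7.14, 8.05 and 8.05 in GFP3, 7.18, 8.82 and 7.68 in GFP2, 6.73, 8.33 and 7.37 in GFP1, and 6.94, 8.06 and 7.72 in Total. The difference between GFP1 and GFP4 was -0.26, with a 95% interval of -1.25 to 0.74, so changes of either direction lie within it. The summed level of 12 macrophage markers in the same libraries was 551.0, 177.7 and 232.5 ppm in GFP4, 402.1, 854.4 and 586.4 ppm in GFP3, 341.2, 1798 and 616.9 ppm in GFP2, 154.6, 1236 and 187.2 ppm in GFP1, and 234.7, 730.7 and 310.0 ppm in Total. In 4 of the 5 groups the 3 libraries had the same order for Nr1h3 and for this sum. That match was looked for after the values were seen, and its part in the spread of Nr1h3 was not tested.

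Of the transport and storage genes, Npc2, the soluble lysosomal protein that hands cholesterol to Npc1, was lower in GFP1. It lies at chr12:84754562-84773152. Npc2 had log2 values of 11.40, 11.59 and 11.22 in GFP1 libraries, against 11.84, 11.62 and 11.76 in GFP4 libraries. The groups did not overlap, but GFP1 library II at 11.59 and GFP4 library II at 11.62 were close. The difference was -0.33 (SE 0.12, limma adjusted p = 0.0477), a fold of 0.793. This call was the least stable of the 8, since 8 of 16 alternative settings ended it. Those were quantile normalization repeated without the immunoglobulin genes, rescaling by the median of ratios, no filter, a pseudocount of 10, and leaving out library I or III of GFP1 or of GFP4, with adjusted p up to 0.244. Npc1, the lysosomal membrane transporter, differed by -0.35 (limma adjusted p = 0.152) with overlap. Soat1, which esterifies cholesterol for storage, differed by -0.17 (limma adjusted p = 0.39) without overlap, and Stard4, a cytosolic sterol carrier, differed by 0.21 with overlap.

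In all, 15 of the 30 genes had libraries that did not overlap between GFP1 and GFP4. Of these, 7 had all GFP1 libraries above and 8 had all below, beside 15.1% above and 17.6% below over all genes tested. That background includes genes of lower level, and no such share was taken among genes of like level, so no excess is read from these counts. The 22 genes that did not pass had differences of -0.35 to 0.41, and their 95% intervals reached a median of 0.25 to either side. Scaling changed the balance of calls. With quantile normalization repeated without the immunoglobulin genes, or with rescaling by the median of ratios, 4 genes were higher and 5 lower, against 2 higher and 6 lower as deposited, since Acat1 and Scap were added and Npc2 was lost. Fdps, Ebp, Msmo1, Sc5d, Srebf2 and Insig1 passed in all 16 alternatives run for GFP1 against GFP4.

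At 2 places in the pathway, consecutive enzymes passed the test in opposite directions. Within each library, the log2 value of Fdps minus that of Fdft1, the enzyme that follows it, was 0.98, 1.06 and 1.05 in GFP1, against 0.16, -0.02 and -0.10 in GFP4. The mean was 1.03 ± 0.04 in GFP1 and 0.01 ± 0.13 in GFP4 (SD, n = 3 each), with 0.31 in GFP3, 0.51 in GFP2 and 0.82 in Total. Ebp minus Sc5d, likewise consecutive, was 0.61, 0.32 and 0.52 in GFP1, against -0.74, -0.79 and -0.51 in GFP4. Its means were 0.48 ± 0.15 in GFP1 and -0.68 ± 0.15 in GFP4 (SD, n = 3 each), a change of 1.16. Among the regulators, Srebf1 minus Srebf2 averaged -1.25 ± 0.07 in GFP1 and -1.77 ± 0.13 in GFP4, and Insig1 minus Insig2 averaged 0.83 ± 0.11 in GFP1 and 1.36 ± 0.16 in GFP4 (SD, n = 3 each). The 4 pairs were chosen after the values had been seen, so these values are a description with no test. Only the shift between groups is read, not the difference in level between genes.

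**Figure D3:**
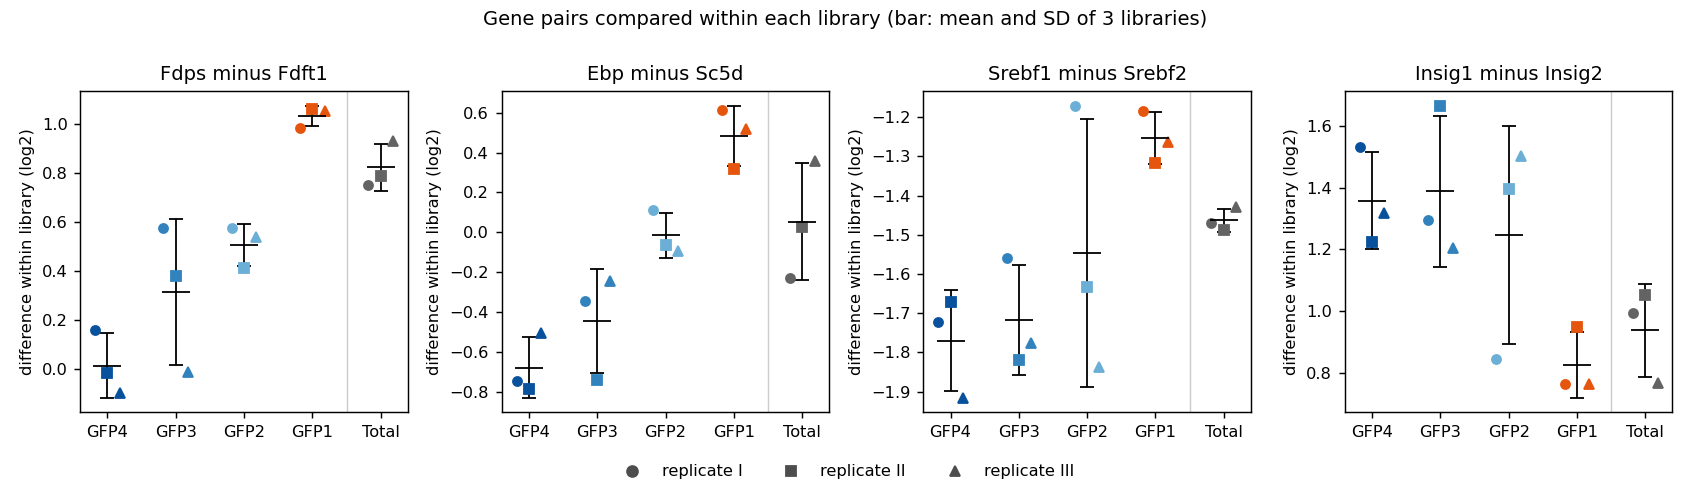
Difference in log2 value between the genes of a pair within each library, for the 4 pairs, in GFP4, GFP3, GFP2, GFP1 and Total (points are libraries; bars show the mean and SD of 3). For Fdps minus Fdft1 the mean is 1.03 in GFP1 and 0.01 in GFP4, and for Ebp minus Sc5d it is 0.48 in GFP1 and -0.68 in GFP4.

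The trend over the 4 bins tests the slope of a straight line through the bin means, and does not require an even change at each step. It passed for 8 of the 30 genes, 3 rising (10%) and 5 falling (16.7%) towards GFP1, beside 9.6% of all genes rising and 10.5% falling. Among the 11058 genes of like level, 19.6% were rising and 22.3% falling, so neither share of the 30 exceeds theirs. Ebp rose by 0.24 per step (SE 0.04, limma adjusted p = 0.000235) and Fdps rose by 0.20 per step (SE 0.04, limma adjusted p = 0.000337), with Acat1 as the third rising gene. Insig1 changed by -0.23 per step (limma adjusted p = 0.000104), Msmo1 by -0.15 (0.00553), Sc5d by -0.15 (0.0034), Fdft1 by -0.13 (0.0224) and Srebf2 by -0.11 (0.00922). The Fdft1 trend was lost without library III of GFP1 or of GFP4, with adjusted p up to 0.0985. Of the 8 genes that passed in GFP1 against GFP4, 6 had group means in the order of the bins, namely Fdps, Ebp, Msmo1, Sc5d, Srebf2 and Insig1. Of the other 22, 6 did so as well, rising in Acat1, Pmvk, Dhcr7, Scap and Nr1h2 and falling in Idi1. Npc2 did not follow the bins, with means of 11.74 (GFP4), 11.72 (GFP3), 11.77 (GFP2) and 11.40 (GFP1). Fdft1 was likewise at 10.65, 10.54 and 10.56 in GFP4, GFP3 and GFP2 and at 10.23 in GFP1.

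**Figure D4:**
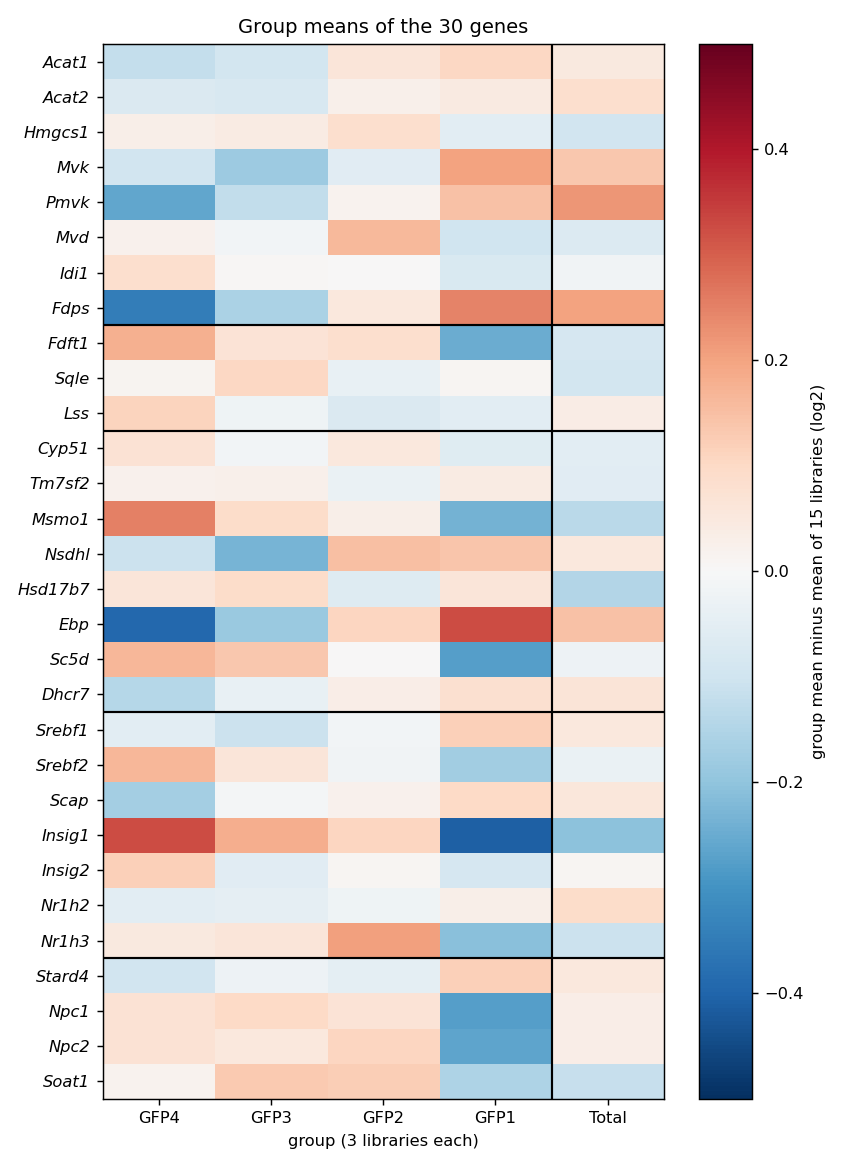
Mean log2 value of each of the 30 genes in GFP4, GFP3, GFP2, GFP1 and Total (3 libraries each) minus its mean over the 15 libraries, as colour, with horizontal lines between the 5 roles. Fdps, Ebp and Insig1 have opposite colours in GFP1 and GFP4.

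GFP2 against GFP4 compares bins that both held few immunoglobulin transcripts. Fdps and Ebp were higher in GFP2, and no other gene of the 30 passed, beside 2.69% of all genes higher and 1.67% lower. The 2 genes are 6.67% of the 30, and among the 11058 genes of like level 6.29% were higher and 3.74% lower. Fdps had 11.23, 11.11 and 10.86 in GFP2 libraries, against 10.72, 10.60 and 10.68 in GFP4, a difference of 0.40 (SE 0.11, limma adjusted p = 0.0499). Ebp had 10.66, 10.52 and 10.44 in GFP2 libraries, against 10.04, 9.88 and 10.21 in GFP4, a difference of 0.50 (SE 0.13, limma adjusted p = 0.039). For both genes every GFP2 library was above every GFP4 library. Both calls were near the threshold, and in 10 of 17 alternatives for Fdps and 5 of 17 for Ebp they were lost, among them leaving out library I or II of either bin, with adjusted p up to 0.272 for Fdps and 0.194 for Ebp. The genes that were lower in GFP1 gave differences between GFP2 and GFP4 of -0.22 for Insig1 (limma adjusted p = 0.434), -0.22 for Msmo1, -0.18 for Srebf2, -0.16 for Sc5d, -0.09 for Fdft1 and 0.04 for Npc2. The GFP4 libraries are shared with the comparison of GFP1 against GFP4, so the 2 sets of values are not independent. Besides the 17 proliferation genes, 3 of 12 megakaryocyte and 2 of 12 erythroid markers were higher in GFP2 than in GFP4. Of 12 HSC markers, 4 were lower and 1 was higher. Of 12 markers each, 1 plasma cell and 1 T and NK cell marker were also higher, and 1 endothelial and stromal marker was lower. The macrophage markers had a median difference of 1.36, with 0 of 12 called by limma, 1 with an unadjusted p under 0.05, and sums of 341.2 to 1798 ppm in GFP2 and 177.7 to 551.0 ppm in GFP4. The part of these lists in the Fdps and Ebp results was not tested.

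Between neighbouring bins few genes passed. For GFP3 against GFP4, 0 of the 30 genes passed in limma, beside 0.0429% of all genes higher and 0.0143% lower, and 0 of the 30 had an unadjusted p under 0.05. For GFP2 against GFP3, 0 of the 30 passed in limma, beside 0% of all genes higher and 0% lower, and 2 of the 30 had an unadjusted p under 0.05. For GFP1 against GFP2, Insig1 alone of the 30 passed, as lower, beside 3.06% of all genes higher and 4.1% lower. Among genes of like level, 5.08% were higher and 9.38% lower. Without GFP2 library III the Insig1 call was lost (-0.46, limma adjusted p = 0.0552) and Fdft1 passed instead (-0.45, limma adjusted p = 0.0459). Without GFP1 library II, Insig1 and Npc2 both passed. With all libraries, Npc2 differed by -0.37 there (limma adjusted p = 0.0588), and with replicate number as a block, which these 2 bins share, it passed as well (limma adjusted p = 0.0422), giving 2 genes. Fdft1 differed by -0.33 with all libraries (limma adjusted p = 0.115).

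The bins were also set against the undivided sort, whose libraries held the immunoglobulin transcripts described above. In GFP4 against Total, 18 of 18 proliferation genes were lower. So were 10 of 12 plasma cell, 6 of 12 B cell and 6 of 12 erythroid markers. Of 12 megakaryocyte markers, 6 were lower and 1 was higher, while 4 of 12 HSC markers were higher and 1 was lower. Of 12 T and NK cell markers, 1 was higher and 1 was lower, and 1 of 12 endothelial and stromal markers was higher. The part of these lists in the differences was not tested. In GFP4 against Total, Fdps differed by -0.55 (SE 0.11, limma adjusted p = 0.00312) and Ebp by -0.54 (SE 0.13, limma adjusted p = 0.0125), both lower in GFP4. Insig1 was higher in GFP4 by 0.53 (SE 0.11, limma adjusted p = 0.00504), and Msmo1 was higher by 0.38 (SE 0.12, limma adjusted p = 0.0458) with libraries that overlapped. These are 2 genes higher and 2 lower (6.67% of the 30 each way), beside 4.7% of all genes higher and 5.29% lower. Among genes of like level, 10.8% were higher and 11.3% lower. Fitting GFP4 and Total alone left 2 calls, Fdps and Insig1. The Ebp call was lost without GFP4 library II (limma adjusted p = 0.0713). The Msmo1 call was lost in 9 of 16 alternatives, among them leaving out library I or III of GFP4 or of Total, with adjusted p up to 0.203. In GFP3 against Total, 0 of the 30 passed in limma, beside 0.672% higher and 1.47% lower over all genes, and 4 of the 30 had an unadjusted p under 0.05. Insig1 came nearest there (0.38, limma adjusted p = 0.099), and passed without Total library II (0.49, adjusted p = 0.0416). In GFP2 against Total, 0 of the 30 passed in limma, beside 0.0107% higher and 0.318% lower, and 1 of the 30 had an unadjusted p under 0.05. In GFP1 against Total, 0 of the 30 passed in limma, beside 0.318% higher and 1.41% lower, and 2 of the 30 had an unadjusted p under 0.05.

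Genes that share substrates or controls with these 30 were read in GFP1 against GFP4. Beside them stand the shares among the 11058 genes of like level, 18.7% higher and 22% lower. The lower bound for those came from the 30 genes, and the levels of the genes listed here were not matched to it. Of 13 genes of the isoprenoid branches, which use farnesyl diphosphate for other products, 2 were higher (15.4%) and 1 was lower (7.69%). Pdss1, which makes the tail of ubiquinone, averaged 9.43 in GFP1 and 8.34 in GFP4, a difference of 1.09 (SE 0.18, limma adjusted p = 0.000174). Fntb, a subunit of farnesyltransferase, differed by 0.46 and Ggps1, geranylgeranyl diphosphate synthase, by -0.37 (limma adjusted p = 0.0497 for each). Both calls were lost with no filter and with a pseudocount of 10. Both were also lost without library I or III of GFP1, or without any 1 library of GFP4. That of Ggps1 was further lost without GFP1 library II, with the replicate block, and with quantile normalization repeated without the immunoglobulin genes. Rescaling by the median of ratios ended the Ggps1 call too. In all, Fntb was lost in 7 of 16 alternatives (limma adjusted p up to 0.254) and Ggps1 in 11 of 16 (up to 0.213). Of 11 tested genes of SREBP processing and sterol-regulated degradation, 1 was higher (9.09%; Erlin1, 0.34) and 2 were lower (18.2%; Pgrmc1, -0.41, and the ubiquitin ligase Rnf145, -0.40). The Erlin1 call was lost without any 1 library of GFP1 or without library I or III of GFP4, with adjusted p up to 0.122. Of 15 genes of fatty acid synthesis and desaturation, 3 were higher (20%), among them Fasn (fatty acid synthase, 0.37) and Hsd17b12 (0.36), and 2 were lower (13.3%), Fads1 (a desaturase, -0.42) and Me1 (malic enzyme, -0.78). The Fasn call was lost without library I or III of either bin (adjusted p up to 0.171), and that of Hsd17b12 without library II or III of GFP1 or library I or II of GFP4 (adjusted p up to 0.148).

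Among 18 sterol transport, uptake and ester genes, differences between GFP1 and GFP4 ran from -1.95 to 1.17. Among the 30 genes they ran from -0.73 to 0.72. The gene at -1.95 is not among those named below. The median absolute difference of the list was 0.33, beside 0.22 among the 30 genes and 0.33 among the 11058 genes of like level. Of the 18, 2 were higher (11.1%) and 4 lower (22.2%) in GFP1, again beside 18.7% and 22% of those 11058 genes, which were not matched to this list. Tmem97, a membrane protein that binds NPC1 in human cells, averaged 10.57 in GFP1 and 9.40 in GFP4 (difference 1.17, SE 0.13, limma adjusted p = 1.21e-06). Scarb1, the receptor for high-density lipoprotein, averaged 11.77 in GFP1 and 11.03 in GFP4 (difference 0.74, SE 0.09, limma adjusted p = 5.36e-06). Nceh1, which hydrolyses cholesterol esters, averaged 11.86 in GFP1 and 13.49 in GFP4 (difference -1.63, SE 0.09, limma adjusted p = 3.82e-10), and Osbpl9, an oxysterol-binding protein relative, differed by -0.66. In GFP2 against GFP4 the genes of this list that passed were Tmem97 (0.48, limma adjusted p = 0.0344), Scarb1 (0.42, 0.00937) and Nceh1 (-0.59, 0.00048). Nceh1 passed there in all 17 alternatives, Scarb1 was lost without GFP2 library II (adjusted p = 0.0527), and Tmem97 was lost in 6 of 17, among them without library I or II of either bin (adjusted p up to 0.166). Of 8 tested oxysterol and other sterol enzymes, 2 were higher in GFP1 than in GFP4 (25%), Lbr (which has sterol reductase activity, 0.43) and Hsd3b7 (0.41), and 2 were lower (25%), the oxysterol hydroxylases Cyp39a1 (-1.42) and Cyp7b1 (-0.84). The Hsd3b7 call was lost without library I of GFP1 or of GFP4 (adjusted p up to 0.104).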

How the data were processed

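RNA from sorted HSCs was amplified with SMART-Seq v4 and made into libraries with Nextera XT, per the labels' protocols. The submitters' processing notes list kallisto 0.43.0 and GRCm38. The step from transcripts to genes, the starting unit and any offset added before taking logs are not stated by those notes or the labels. In the deposited table, the authors gave log2 values, 1 row per symbol and 1 column per library, that from the values are quantile normalized. Such scaling hides differences in total RNA, and without counts no depth or counting interval can be stated. Linear values, 2 to the power of the value minus 1, served for filters and ppm.

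A gene needed a linear value of 1 or more in 3 or more libraries to be tested; the 27994 such genes entered limma 3.58.1 in R 4.3.3, with 1 mean per group over 15 libraries, intensity trend, robust moderation, no covariate and residual df 10. Benjamini-Hochberg adjustment was over all genes tested within each of 10 comparisons, with the threshold at 0.05. The script was tested on simulated data. Differences are log2, first group minus second, and folds are on the deposited log2 scale.

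The 30 genes, the pathway lists and the marker lists were chosen with earlier results of these data known. Genes that passed in GFP1 against GFP4, GFP2 against GFP4 or the trend are given by library. Up to 2 genes each way by smallest p are named from each pathway list. The gene pairs and the macrophage sum were picked after values were seen.

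Replicate numbers are shared by all groups, and mark age and weeks of doxycycline. Deviations of same-numbered libraries from their group means correlated above 0.1 in all 3 pairs for 5 of the 10 pairs of groups, among them GFP1 with GFP2 but not GFP1 with GFP4, so the main fit has no block. Alternatives were the replicate block, repeated quantile normalization with and without immunoglobulin genes, rescaling by the median of ratios, no filter, a filter at a mean of 1 ppm, pseudocounts of 0.1 and 10, array weights, the compared groups alone, GFP1 and Total left out, and each library left out. Promoter windows come from RefSeq (GRCm38.p6) and gene coordinates from GENCODE on GRCm38.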

Additional observations from a re-analysis of the deposited data

How the results depend on the processing

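Over all comparisons, 23 results of the 30 genes passed, and 21 of named pathway genes passed in GFP1 or GFP2 against GFP4. No difference among these changed sign under any alternative run. They were followed because they had passed, so their signs could hardly change, and this is no separate support for them. Of the 21 results of pathway genes, 13 passed in all alternatives. The count of the 30 genes that passed was 8 for GFP1 against GFP4 and 6 to 10 under its 16 alternatives. With the replicate block it was 9, Acat1 being added (limma adjusted p = 0.0474), and the trend kept 8. The trend had 6 to 11 under its 22 alternatives. For GFP2 against GFP4 the count of 2 became 1 with rescaling by the median of ratios, no filter, a pseudocount of 10, the compared groups alone, or GFP1 and Total left out, and 0 to 1 without single libraries of the 2 bins. For GFP1 against GFP2 the count of 1 became 2 with the replicate block, a filter at 1 ppm or array weights, and 1 to 2 without single libraries. For GFP4 against Total the count of 4 became 2 with the compared groups alone. For GFP3 against Total the count of 0 became 0 to 1 without single libraries. The cause of these shifts was not tested.

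Over all genes, the number called differed from the reported one by more than 1.5 times in these comparisons: GFP3 against GFP4 had 16, with 0 to 122 under alternatives; GFP2 against GFP3 had 0, with up to 19; GFP1 against GFP2 had 2007, with 1203 to 2778; GFP2 against GFP4 had 1219, with 535 to 1621; GFP4 against Total had 2799, with 1716 to 3481; GFP3 against Total had 599, with 174 to 927; GFP2 against Total had 92, with 46 to 126; GFP1 against Total had 484, with 88 to 714. With 3 libraries a group and unknown depth, differences near 0.25 on the log2 scale were often inside the interval.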
